A study of Homo sapiens with 9 samples.

Results

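The genes described here are the 35 aminoacyl-tRNA synthetase genes whose symbols were looked up in a count table of 27730 gene symbols. They were picked out by symbol, but with earlier results of these data known, so counts over them have no test of their own. Of them, 18 encode cytosolic enzymes, 15 encode mitochondrial enzymes with symbols ending in 2, and GARS and KARS each encode the enzyme of both compartments. All 35 were present and passed the filter on low counts in every comparison. The RNA was that of the embryonic stem cell line HUES9 (human), in 3 groups of 3 libraries that the labels call independent experiments. The groups were day 13 cells with AA147 at 10 µM, day 13 cells with RP22 at 10 µM, and untreated day 1 cells. AA147 is a small molecule that activates ATF6, a sensor of protein folding stress in the endoplasmic reticulum, and RP22 is its analogue. All cells were grown beforehand on mouse feeder fibroblasts, were given a Stemolecule reagent before embryoid bodies were spun, and were left to differentiate without FGF2, later attached to Matrigel, per the labels' protocol. Both compounds were dissolved in DMSO, and none of the 9 libraries was of cells with DMSO alone. The results come from a single cell line, the cultures are mixtures of cell types, and reads of mouse feeder cells could not be separated.

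An aminoacyl-tRNA synthetase joins an amino acid to its matching tRNAs, and so supplies the ribosome with charged tRNA. Animal cells make their own proteins with a cytosolic set of these enzymes and translate the few messages of mitochondrial DNA with a separate, nucleus-encoded set. Several cytosolic enzymes sit together in the multisynthetase complex, and many cytosolic genes are known targets of ATF4, the transcription factor of the amino acid response. ATF6 is known for another programme, the chaperone and folding genes of the endoplasmic reticulum.

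The 9 libraries held between 9223027 and 10118258 reads on genes, and the 35 members between 52 reads (FARS2 in AA147 replicate 2) and 7389 reads (TARS in day 1 replicate 1). Embryonic stem cell markers summed to 53 to 78.5 CPM in AA147 libraries, 337 to 601 CPM in RP22 libraries and 5810 to 6460 CPM in day 1 libraries. Of the 6 markers, 1 had no read in AA147 libraries. Smooth muscle and mesenchyme markers summed to 25400 to 32800 CPM in AA147 libraries, 4250 to 14200 CPM in RP22 libraries and 285 to 292 CPM in day 1 libraries. These sums were mostly the collagens COL1A1 and COL3A1. They had 5680 and 8169 CPM in RP22 replicate 1, against 2053 and 1742 CPM in RP22 replicate 2. For AA147 against RP22, COL3A1 was not called by edgeR (adjusted p = 0.091 with TMM), and the other 4 markers rose under both scalings. Trophoblast markers summed to 1920 to 1990 CPM in AA147 libraries, 998 to 1180 CPM in RP22 libraries and 8.06 to 12.5 CPM in day 1 libraries. The sum was mostly KRT7 in AA147 and day 1 libraries. In RP22 libraries KRT7 had 536, 490 and 428 CPM, beside 219, 397 and 328 CPM of CGA. KRT7 rose for AA147 against RP22. CGA and CYP19A1 of the same list fell under both scalings, with log2 fold changes of -3.52 and -2.95 with TMM. Hepatic endoderm markers summed to 0.965 to 3.15 CPM in AA147 libraries, 81.3 to 134 CPM in RP22 libraries and 5.3 to 8.95 CPM in day 1 libraries. Neuron and neural progenitor markers summed to 423 to 468, 723 to 962 and 158 to 196 CPM, in that order, and endothelial markers to 5.52 to 22.3, 85.9 to 180 and 37.9 to 58.1 CPM. For AA147 against RP22, 4 of 5 neuron and 4 of 4 tested endothelial markers fell under both scalings. Of all genes, 32.2% fell with TMM and 59.7% with library totals alone. The neuron marker TUBB3 rose with TMM (0.36). RP22 replicate 1 stood apart from the other RP22 libraries, with a chi-square per degree of freedom over all genes of 28.0 and 26.9 against them, where these differed from each other by 2.39. Replicate 1 was also the most distant library in the other groups. Its values were 9.98 and 10.5, against 5.08, in AA147 libraries, and 13.8 and 8.47, against 3.66, in day 1 libraries. In such bulk RNA, fewer cells of a type and less RNA per cell cannot be told apart, and the part of cell composition in the synthetase results was not tested.

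The fold changes depend on how libraries are scaled. CPM here are counts scaled to library size after TMM normalization, which assumes that most genes do not change, and RPKM are the authors' values, scaled to the library's reads and the gene's length. TMM factors were 0.786 to 0.820 in AA147 libraries, 1.11 to 1.18 in RP22 libraries and 1.08 in each day 1 library. Over all genes tested the median log2 fold change with TMM was -0.03 for AA147 against RP22, 0.02 for RP22 against day 1 and -0.04 for AA147 against day 1. With library totals alone it was -0.49, 0.12 and -0.48. Counts and medians of gene lists in the comparisons with AA147 are therefore given under both scalings. Ratios between genes of a library, which no scaling between libraries changes, carry the contrast of cytosolic with mitochondrial enzymes. For some genes, such as HARS and RARS2, the factor between RPKM and reads per library total varied between libraries. Ratios of RPKM can therefore differ from ratios of reads.

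In RPKM, which allows levels of different genes to be compared, the highest synthetase genes were cytosolic or dual ones in every group, and the lowest were mitochondrial. The highest median at day 13 was that of SARS, which charges serine tRNA, with 95.1 RPKM in AA147 libraries and 87.9 RPKM in RP22 libraries. TARS, the threonine enzyme, led at day 1 with a median of 270.5 RPKM and was the third with AA147 at 78.8 RPKM and the fifth with RP22 at 74.8 RPKM. GARS, the glycine enzyme, held 84.8, 108 and 91.5 RPKM in AA147 libraries, 72.3, 86.6 and 82.6 RPKM in RP22 libraries and 137, 186 and 178 RPKM in day 1 libraries. SARS and GARS overlapped in range within each day 13 group, so their order there is not resolved. Among mitochondrial enzymes the isoleucine enzyme IARS2 was the highest in every group, with medians of 43.8, 48.7 and 55.6 RPKM in AA147, RP22 and day 1 libraries. The methionine enzyme MARS2 was the lowest of all 35, with 1.88 to 2.29 RPKM in AA147 libraries, 3.06 to 4.32 RPKM in RP22 libraries and 6.70 to 7.56 RPKM in day 1 libraries.

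Promoter windows, 250 bases before to 50 bases after the start, were matched in RefSeq (GRCh38.p14) for 29 of the 35 genes; DARS, LARS, VARS, YARS, AARS2 and VARS2 were not matched. RefSeq lists some members under newer symbols, such as AARS1 for AARS. The windows were searched on both strands for TGATGCAA, the core of the C/EBP-ATF response element that ATF4 is known to bind. It was present in 6 of 14 cytosolic members, in 0 of 2 members of both compartments and in 0 of 13 mitochondrial members. Over all genes with a window the share was 1.08%, and over all 35116 windows it was 0.866%. The 6 sites are shown on the gene's strand, each with its neighbouring bases, because they separate part of the cytosolic set from the mitochondrial set in sequence; capitals mark the motif, which reads TTGCATCA where it lies on the other strand.
AARS: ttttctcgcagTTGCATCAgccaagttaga
CARS: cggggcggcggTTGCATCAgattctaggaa
IARS: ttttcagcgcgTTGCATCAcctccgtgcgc
MARS: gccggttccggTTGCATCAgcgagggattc
NARS: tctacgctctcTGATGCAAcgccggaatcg
TARS: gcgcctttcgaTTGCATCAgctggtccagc

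These windows lie at chr16:70289675-70289704 on the minus strand for AARS, chr11:3057407-3057436 on the minus strand for CARS and chr9:92293692-92293721 on the minus strand for IARS. They lie at chr12:57488053-57488082 on the plus strand for MARS, chr18:57621804-57621833 on the minus strand for NARS and chr5:33440956-33440985 on the plus strand for TARS. In 5 of the 6 the motif began within 15 bases of the annotated start, and in AARS it began 187 bases before it. The cyclic AMP response element TGACGTCA and the endoplasmic reticulum stress element through which ATF6 is known to act, CCAAT and CCACG 9 bases apart, were found in 0 of the 29 members' windows. Their shares over all windows were 1.85% and 0.0769%. A match describes letters and not binding, and no match says only that these letters are not in the window.

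Day 13 cells with RP22 held less synthetase RNA than day 1 cells, and more so for cytosolic than for mitochondrial enzymes. Of the 35 genes, 30 (85.7%) fell by edgeR's quasi-likelihood test at a Benjamini-Hochberg adjusted p under 0.05, against 35.2% of all genes tested, and 0 rose, against 36.6%. At an unadjusted p under 0.05, 0 rose and 30 fell, and DESeq2 and limma-voom also called 0 rises and 30 falls. Of the cytosolic genes, 17 of 18 fell with a median log2 fold change of -1.09, both GARS and KARS fell, and 11 of 15 mitochondrial genes fell with a median of -0.61. On library totals alone 29 fell, against 31.4% of all genes, and 1, VARS2, rose, against 40.0%. Without RP22 replicate 1, 1 rose and 30 fell with TMM. The groups did not overlap for 32 of the 35 genes, against 76.9% of all genes.

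TARS had 182, 179 and 184 CPM in RP22 libraries, against 687, 705 and 709.6 CPM in day 1 libraries. Its log2 fold change of -1.95 ± 0.07 (SE, adjusted p = 3.2e-07) was the largest of the 35, and the RP22 libraries differed little from each other. AARS, the alanine enzyme, had 113, 121 and 121 CPM in RP22 libraries, against 299.6, 418 and 384 CPM in day 1 libraries. Each RP22 library lay far below each day 1 library although the day 1 libraries were spread, and the log2 fold change was -1.63 ± 0.12 (SE, adjusted p = 1.2e-05).

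NARS, the asparagine enzyme, had 176, 194 and 187 CPM in RP22 libraries, against 454, 573 and 516 CPM in day 1 libraries, a log2 fold change of -1.47 ± 0.10 (SE, adjusted p = 6.9e-06). The largest mitochondrial change was that of EARS2, the glutamate enzyme, with 34.8, 32.4 and 38.5 CPM in RP22 libraries, against 97.3, 96.2 and 98.3 CPM in day 1 libraries. Its log2 fold change was -1.47 ± 0.09 (SE, adjusted p = 4.1e-06), as large as that of NARS. The cytosolic tryptophan, tyrosine and phenylalanine enzymes fell as well, with log2 fold changes of -1.41 for WARS, -1.35 for YARS, -1.28 for FARSA and -1.20 for FARSB, of which FARSA and FARSB are the subunits of a single enzyme.

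GARS had 179, 203 and 192 CPM in RP22 libraries, against 349, 471 and 453 CPM in day 1 libraries, a log2 fold change of -1.15 ± 0.12 (SE, adjusted p = 5.9e-05). KARS, the lysine enzyme, had 132, 137 and 128 CPM in RP22 libraries, against 249, 283 and 287 CPM in day 1 libraries, a log2 fold change of -1.05 ± 0.08 (SE, adjusted p = 1.3e-05). Both genes thus moved like the median cytosolic gene. QARS, the glutamine enzyme and the only cytosolic gene not called, had 190.1, 203 and 201 CPM in RP22 libraries, against 228, 209 and 217 CPM in day 1 libraries, with a log2 fold change of -0.14 and a 95% interval of -0.30 to 0.02. The cytosolic histidine enzyme HARS fell by 0.35 on the log2 scale with adjusted p = 0.013 by edgeR, but with library totals alone its change of -0.25 (adjusted p = 0.06) was not called, nor was it without day 1 replicate 2.

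The mitochondrial genes that were not called were CARS2, HARS2, RARS2 and VARS2, the cysteine, histidine, arginine and valine enzymes. VARS2 had 39.2, 48.98 and 51.1 CPM in RP22 libraries, against 41.6, 38.7 and 37.01 CPM in day 1 libraries, and RP22 replicate 1 was the lowest of its group. Its log2 fold change was 0.25 ± 0.12 (SE, adjusted p = 0.091) by edgeR, and it rose with library totals alone at 0.35 (adjusted p = 0.042), or with 0.35 on the TMM scale without RP22 replicate 1. Its cytosolic counterpart VARS had 98.01, 96.9 and 100.3 CPM in RP22 libraries, against 206, 201 and 200.5 CPM in day 1 libraries, a log2 fold change of -1.04 ± 0.07 (SE, adjusted p = 5.2e-06).

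**Figure D1:**
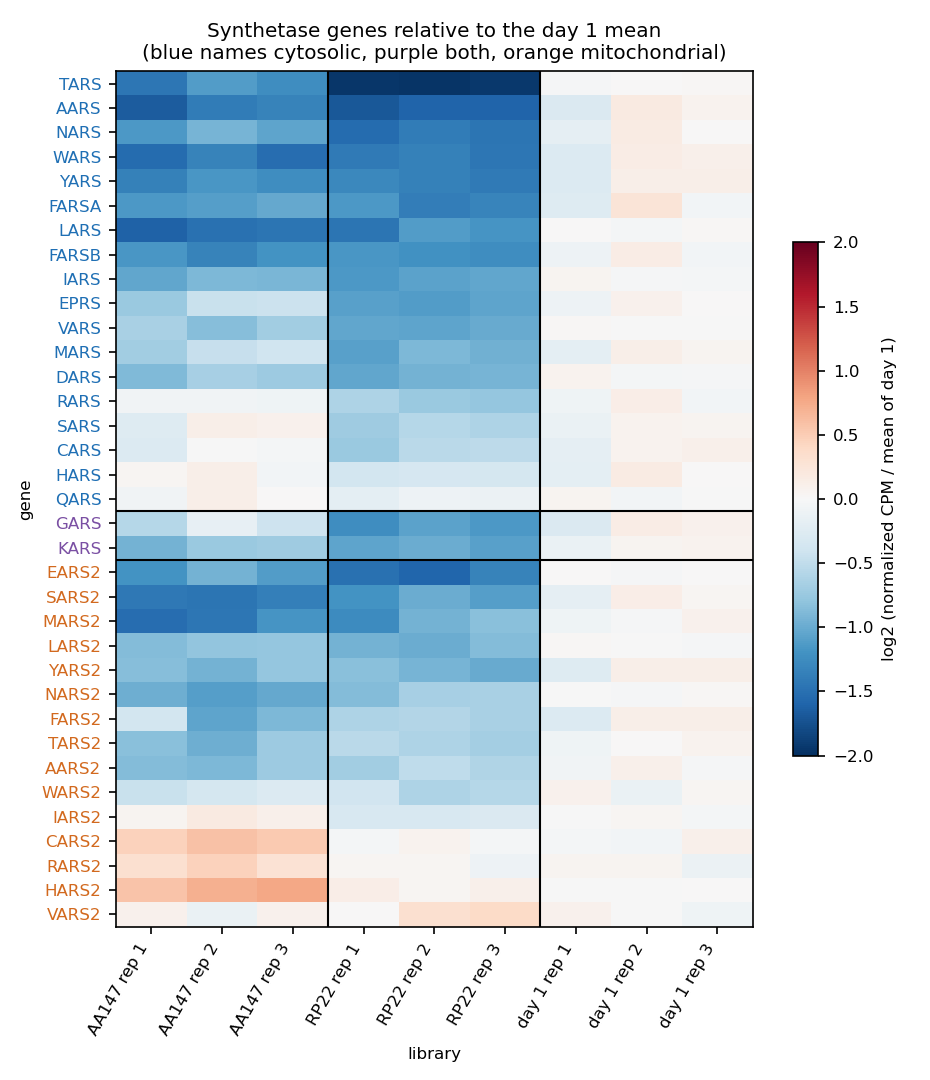
Level of each of the 35 genes (rows) in each of the 9 libraries (columns), as log2 of TMM-normalized CPM over the mean of the day 1 libraries, with blue lower and red higher. Most rows are blue in RP22 and AA147 libraries, while CARS2, RARS2 and HARS2 are red with AA147 on this scale, of which RARS2 turns below day 1 with library totals alone.

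With AA147 at day 13 the same contrast with day 1, which shares its day 1 libraries with the one above, was less even. Of the 35 genes, 25 (71.4%) fell, against 40.4% of all genes tested, and 3 (8.57%) rose, against 38.7%, all 3 of them mitochondrial. Of the cytosolic genes 13 of 18 fell with a median log2 fold change of -0.86, and 10 of 15 mitochondrial genes fell with a median of -0.81. By library totals alone 32 fell, including all 18 cytosolic genes, against 53.9% of all genes, and 1, HARS2, rose, against 28.1%. The groups did not overlap for 28 of 35 genes, against 82.3% of all genes.

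LARS, the leucine enzyme, had 151, 164 and 167 CPM in AA147 libraries, against 465, 447 and 471 CPM in day 1 libraries. It was the largest fall, with a log2 fold change of -1.52 ± 0.07 (SE, adjusted p = 6e-08). AARS had 115, 139 and 145 CPM in AA147 libraries beside the day 1 values above, and its log2 fold change was -1.47 ± 0.13 (SE, adjusted p = 9.4e-06). Neither gene's groups overlapped.

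WARS had 91.5, 105 and 92.6 CPM in AA147 libraries, against 218, 292 and 285 CPM in day 1 libraries, a log2 fold change of -1.46 ± 0.12 (SE, adjusted p = 2.8e-06). The mitochondrial serine enzyme SARS2 had 17.05, 16.7 and 17.9 CPM in AA147 libraries, against 40.5, 50.7 and 47.2 CPM in day 1 libraries, a log2 fold change of -1.42 ± 0.11 (SE, adjusted p = 2.2e-06). With library totals alone these 4 genes also fell, by 1.86 to 1.96 on the log2 scale. In all of them every AA147 library lay below every day 1 library, also in RPKM, where the mean with AA147 was the lowest of the 3 groups.

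The 3 genes that rose on the TMM scale were HARS2, CARS2 and RARS2. HARS2 had 52.97, 58.5 and 60.98 CPM in AA147 libraries, against 35.7, 35.7 and 35.8 CPM in day 1 libraries, a log2 fold change of 0.68 ± 0.09 (SE, adjusted p = 4.9e-05). Scaled by library totals alone it was still higher at 0.25 (adjusted p = 0.02). HARS2 was the only member whose counts held fractions of reads, in 7 of its 9 libraries, and the sources used here do not say how these arose, so its level is uncertain.

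CARS2 had 59.00, 63.7 and 61.5 CPM in AA147 libraries, against 41.4, 40.9 and 45.7 CPM in day 1 libraries, a log2 fold change of 0.52 ± 0.08 (SE, adjusted p = 0.00028). RARS2 had 73.7, 80.7 and 71.8 CPM in AA147 libraries, against 61.3, 60.9 and 54.5 CPM in day 1 libraries, a log2 fold change of 0.36 ± 0.09 (SE, adjusted p = 0.0039). With library totals alone neither was called, CARS2 at 0.09 and RARS2 at -0.08, below 0. In RPKM, HARS2 and CARS2 were on average no lower at day 13 with AA147 than at day 1, while every mitochondrial gene other than these, RARS2 and VARS2 was lower in each day 13 library than in each day 1 library.

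GARS had 285, 378 and 319 CPM in AA147 libraries, where the highest value lay within the day 1 range. Its log2 fold change was -0.38 ± 0.14 (SE, adjusted p = 0.029) with TMM and -0.82 (adjusted p = 0.00038) with totals alone, and the TMM call ended without AA147 replicate 1, AA147 replicate 3, day 1 replicate 2 or day 1 replicate 3. KARS had 142, 163 and 166 CPM in AA147 libraries and fell, with a log2 fold change of -0.80 ± 0.09 (SE, adjusted p = 1.9e-05) with TMM and -1.24 (adjusted p = 6.8e-07) with totals alone. CARS, HARS, QARS, RARS and SARS were not called on the TMM scale, with log2 fold changes between -0.10 and 0.03, and fell with library totals alone, by 0.40 to 0.54 on the log2 scale.

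**Figure D2:**
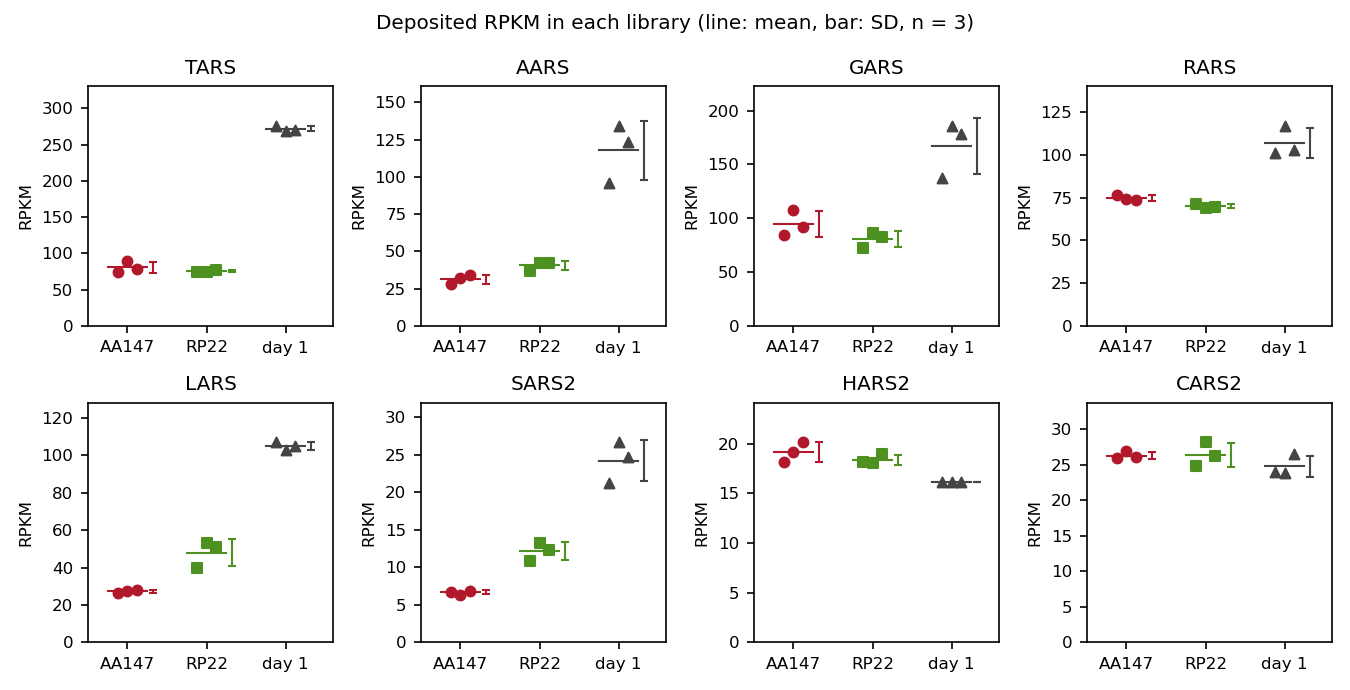
Deposited RPKM of 8 synthetase genes in each library of the AA147, RP22 and day 1 groups, with the group mean as a line and its SD as a bar (n = 3). TARS, AARS, GARS, RARS, LARS and SARS2 are lower at day 13 than at day 1 in every library, LARS and SARS2 are lower with AA147 than with RP22, and the means of HARS2 and CARS2 are no lower at day 13 than at day 1.

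AA147 was compared with RP22 at the same dose and day, as the test of whether the compounds differed. On the TMM scale 15 of the 35 genes (42.9%) rose with AA147, against 29.8% of all genes tested, and 5 (14.3%) fell, against 32.2%. With library totals alone 0 rose, against 13.3% of all genes, and 21 of 35 fell, against 59.7% of all genes, a share at the background; at an unadjusted p under 0.05 these were 0 and 22. Without RP22 replicate 1, 15 rose and 6 fell with TMM. The genes that fell under both scalings were LARS and the mitochondrial AARS2, NARS2, SARS2 and TARS2, and no gene rose under both. On the TMM scale 9 of 18 cytosolic genes rose and 1 fell (median log2 fold change 0.18), GARS rose, and 5 of 15 mitochondrial genes rose and 4 fell (median -0.01). The groups did not overlap for 26 of 35 genes, against 70.5% of all genes.

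The largest rise on the TMM scale was that of GARS, with 285, 378 and 319 CPM in AA147 libraries and 179, 203 and 192 CPM in RP22 libraries. The log2 fold change was 0.69 ± 0.10 (SE, adjusted p = 0.00078), and with library totals alone it was 0.23 (adjusted p = 0.085). TARS had 257, 323 and 296 CPM in AA147 libraries and 182, 179 and 184 CPM in RP22 libraries, a log2 fold change of 0.60 ± 0.08 (SE, adjusted p = 0.00051) with TMM and 0.15 (adjusted p = 0.14) with totals alone. Each AA147 library of both genes was above each RP22 library on the TMM scale, whereas in RPKM the ranges overlapped.

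RARS, the arginine enzyme, had 200.0, 201 and 199 CPM in AA147 libraries and 138, 126 and 124 CPM in RP22 libraries, a log2 fold change of 0.55 ± 0.07 (SE, adjusted p = 0.00025) with TMM and 0.10 (adjusted p = 0.18) with totals alone. SARS had 183, 239.6 and 234 CPM in AA147 libraries and 135, 148 and 144 CPM in RP22 libraries, a log2 fold change of 0.54 ± 0.10 (SE, adjusted p = 0.0024) with TMM and 0.08 (adjusted p = 0.5) with totals alone. RARS was even among the AA147 libraries, while SARS was lowest in AA147 replicate 1. EPRS, the glutamate and proline enzyme, and HARS2 rose on the TMM scale and stayed above 0 with totals alone, at 0.02 and 0.06; the other 9 genes that rose with TMM lay below 0 with totals alone, and VARS was called in opposite directions, at 0.23 with TMM and -0.23 with totals.

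Among the falls, SARS2 had 17.05, 16.7 and 17.9 CPM in AA147 libraries and 20.2, 23.3 and 21.4 CPM in RP22 libraries, a log2 fold change of -0.41 ± 0.11 (SE, adjusted p = 0.011) with TMM and -0.87 (adjusted p = 0.00036) with totals alone. NARS2 had 25.04, 22.9 and 24.2 CPM in AA147 libraries and 26.8, 30.96 and 31.4 CPM in RP22 libraries, a log2 fold change of -0.39 ± 0.10 (SE, adjusted p = 0.012) with TMM and -0.84 (adjusted p = 0.00041) with totals alone. Neither gene's groups overlapped. LARS had 151, 164 and 167 CPM in AA147 libraries and 168, 212 and 204 CPM in RP22 libraries, a log2 fold change of -0.36 ± 0.10 (SE, adjusted p = 0.014) with TMM and -0.82 (adjusted p = 0.00038) with totals alone. TARS2 had 21.8, 19.6 and 23.3 CPM in AA147 libraries and 26.6, 25.3 and 24.2 CPM in RP22 libraries, a log2 fold change of -0.31 ± 0.10 (SE, adjusted p = 0.028) with TMM and -0.77 (adjusted p = 0.00036) with totals alone. The gap between the groups was small on the TMM scale for LARS and TARS2, and the TMM calls of falls numbered 0 without RP22 replicate 2, 1 without RP22 replicate 3 and 3 without AA147 replicate 2.

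KARS had 142, 163 and 166 CPM in AA147 libraries and 132, 137 and 128 CPM in RP22 libraries. It was not called on the TMM scale, with a log2 fold change of 0.16 and a 95% interval of -0.01 to 0.34, and fell with totals alone at -0.29 (adjusted p = 0.0086). Of the 15 genes not called on the TMM scale, the 3 narrowest intervals were those of IARS (-0.10 to 0.21), QARS (-0.08 to 0.24) and YARS (-0.15 to 0.18), which bound the difference between the compounds on that scale. The intervals of MARS2 (-0.88 to -0.02) and VARS2 (-0.60 to -0.03), unadjusted for the number of genes, lay below 0.

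**Figure D3:**
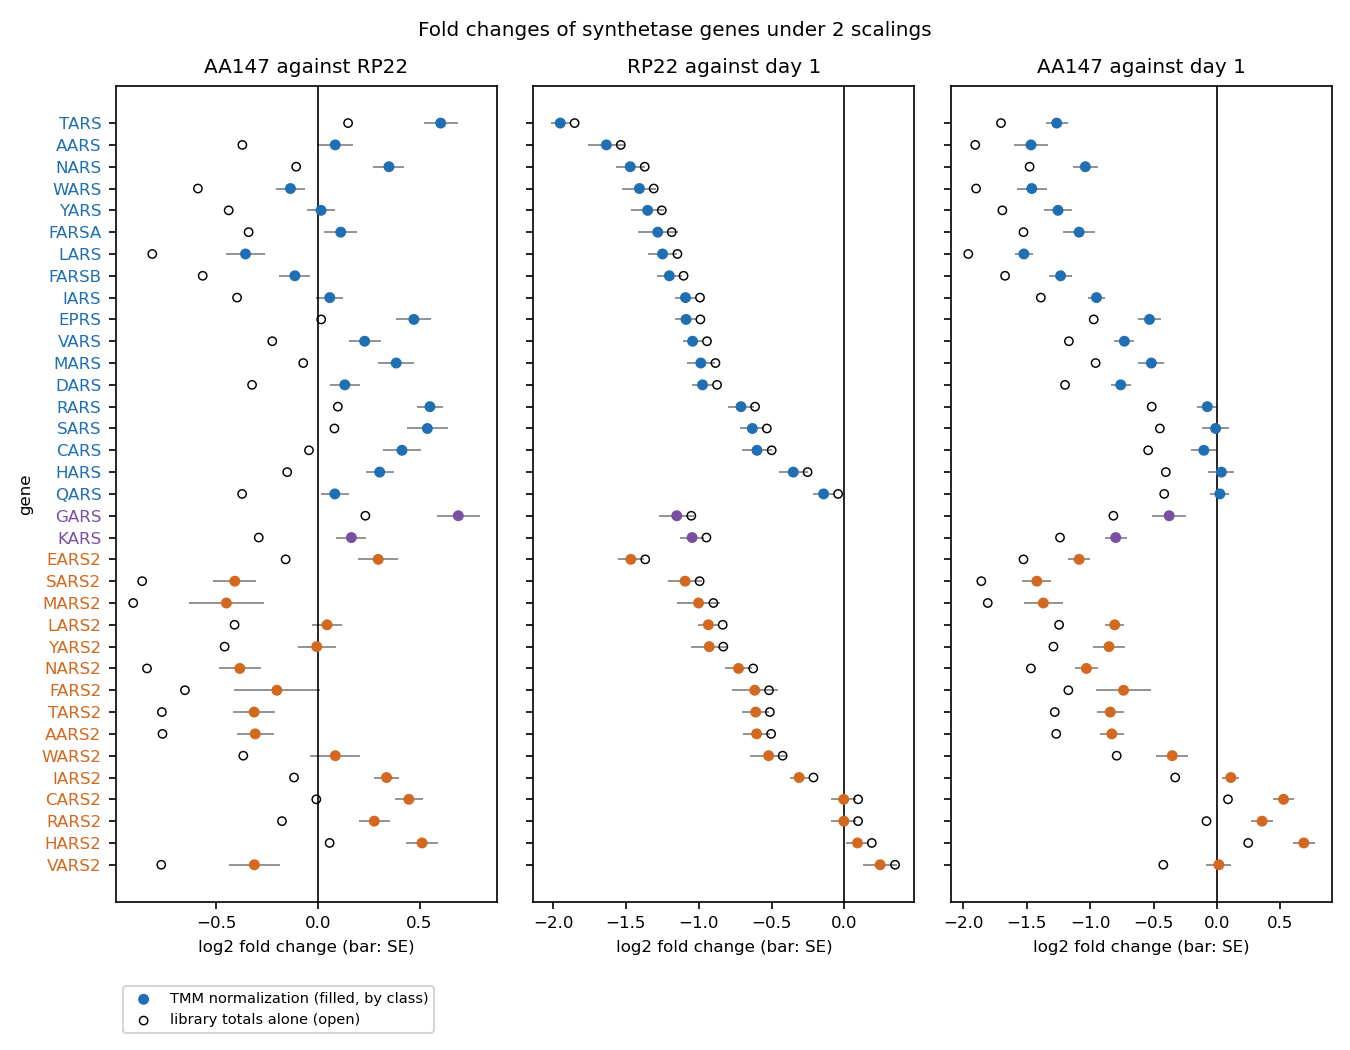
Log2 fold change of each of the 35 genes in the 3 comparisons, with TMM normalization (filled, blue cytosolic, purple both compartments, orange mitochondrial, bar SE) and with library totals alone (open). The scaling moves all points of a comparison together, so that most points of AA147 against RP22 lie above 0 with TMM and below 0 with totals. The 11 points below 0 with TMM are below 0 with both, and of these LARS, AARS2, NARS2, SARS2 and TARS2 were called as falls with both.

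The ratio of cytosolic to mitochondrial enzymes within a library does not depend on the scaling between libraries. The RPKM of the 18 cytosolic genes summed to 4.08, 4.499 and 4.38 times that of the 15 mitochondrial genes in AA147 libraries, 3.94, 3.90 and 3.99 times in RP22 libraries and 6.001, 6.45 and 6.29 times in day 1 libraries. The groups did not overlap, and the gap between the day 13 groups was small beside that to day 1. Cytosolic genes took 0.233 to 0.255% of all reads in AA147 libraries, 0.265 to 0.294% in RP22 libraries and 0.551 to 0.621% in day 1 libraries. Mitochondrial genes took 0.0541% in each AA147 library, 0.0637 to 0.0698% in RP22 libraries and 0.0882 to 0.0919% in day 1 libraries. As medians of log2 fold changes, the cytosolic genes differed from the mitochondrial ones by 0.19 for AA147 against RP22, -0.48 for RP22 against day 1 and -0.05 for AA147 against day 1. The last lay between -0.11 and 0.03 when single libraries were left out, so it has no stable sign, whereas the sums, which weigh the abundant genes, gave a lower ratio with AA147 than at day 1 in every library.

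For 15 amino acids the cytosolic and the mitochondrial gene were both among the members. In 14 of these pairs the cytosolic gene had the higher RPKM in every library. The exception was isoleucine, where IARS over IARS2 was 0.972, 0.978 and 1.02 in AA147 libraries, 1.16, 1.22 and 1.23 in RP22 libraries and 2.14, 1.97 and 2.08 in day 1 libraries. IARS had 245, 268 and 265 CPM in AA147 libraries, 225, 238 and 243 CPM in RP22 libraries and 519, 495 and 489.7 CPM in day 1 libraries. IARS2 had 189.6, 207 and 196 CPM in AA147 libraries, 147, 147 and 149 CPM in RP22 libraries and 183, 189 and 177 CPM in day 1 libraries. IARS was lower at day 13 in every library than at day 1, while IARS2 with AA147 lay above its day 1 range on the TMM scale and below it in RPKM. The median ratio was lower with AA147 than at day 1 in 12 pairs, lower with RP22 than at day 1 in 12 pairs, and higher with AA147 than with RP22 in 10 pairs.

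Serine was the pair that moved most against this pattern. SARS over SARS2 was 11.4, 15.2 and 13.9 in AA147 libraries, 7.12, 6.73 and 7.15 in RP22 libraries and 5.25, 4.84 and 5.17 in day 1 libraries, in 3 separate ranges. The log2 fold change of SARS less that of SARS2 was 1.41 for AA147 against day 1 and 0.95 for AA147 against RP22. On the TMM scale SARS with AA147 was near its day 1 values of 200.2, 231 and 229.7 CPM. EPRS over EARS2 was 5.74, 6.05 and 6.77 in AA147 libraries, 5.53, 5.93 and 5.16 in RP22 libraries and 3.96, 4.42 and 4.16 in day 1 libraries. It was thus above day 1 with both compounds, whose ranges overlapped. The pair of the methionine enzymes also opened with AA147. MARS over MARS2 was 30.98, 34.6 and 30.1 in AA147 libraries, 19.7, 18.01 and 16.2 in RP22 libraries and 16.3, 19.2 and 17.2 in day 1 libraries, so that the RP22 and day 1 ranges overlapped and the AA147 range lay above both. MARS had 207, 243 and 254 CPM in AA147 libraries, 158, 179.6 and 172 CPM in RP22 libraries and 295, 363 and 350.3 CPM in day 1 libraries. MARS2 had 7.08, 7.45 and 8.95 CPM in AA147 libraries, 8.502, 10.6 and 11.3 CPM in RP22 libraries and 19.1, 20.04 and 21.6 CPM in day 1 libraries, and was lower at day 13 in every library.

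The threonine, alanine and valine pairs closed most between day 1 and day 13 with RP22. TARS over TARS2 was 11.6, 16.2 and 11.9 in AA147 libraries, 7.06, 6.95 and 7.46 in RP22 libraries and 19.48, 17.9 and 17.1 in day 1 libraries. AARS over AARS2 was 5.54, 6.85 and 6.36 in AA147 libraries, 4.82, 4.58 and 4.86 in RP22 libraries and 8.35, 10.3 and 10.4 in day 1 libraries. VARS over VARS2 was 2.61, 2.63 and 2.49 in AA147 libraries, 2.100, 1.63 and 1.62 in RP22 libraries and 4.11, 4.29 and 4.41 in day 1 libraries. In these 3 pairs the AA147 ratios lay between those of RP22 and day 1 without overlap. Of the mitochondrial partners, AARS2 had 29.5, 28.7 and 32.3 CPM in AA147 libraries, 33.3, 37.5 and 35.3 CPM in RP22 libraries and 50.8, 57.5 and 52.5 CPM in day 1 libraries, and TARS2 had 36.5, 38.8 and 40.7 CPM in day 1 libraries beside the day 13 values above. The tryptophan pair was different, since WARS over WARS2 was 6.02, 6.498 and 5.44 in AA147 libraries, 6.29, 8.11 and 6.99 in RP22 libraries and 9.997, 15.6 and 13.4 in day 1 libraries, with the day 13 groups overlapping. WARS2 itself had 14.9, 15.9 and 16.8 CPM in AA147 libraries, 15.6, 13.2 and 13.6 CPM in RP22 libraries and 21.5, 18.5 and 20.8 CPM in day 1 libraries.

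**Figure D4:**
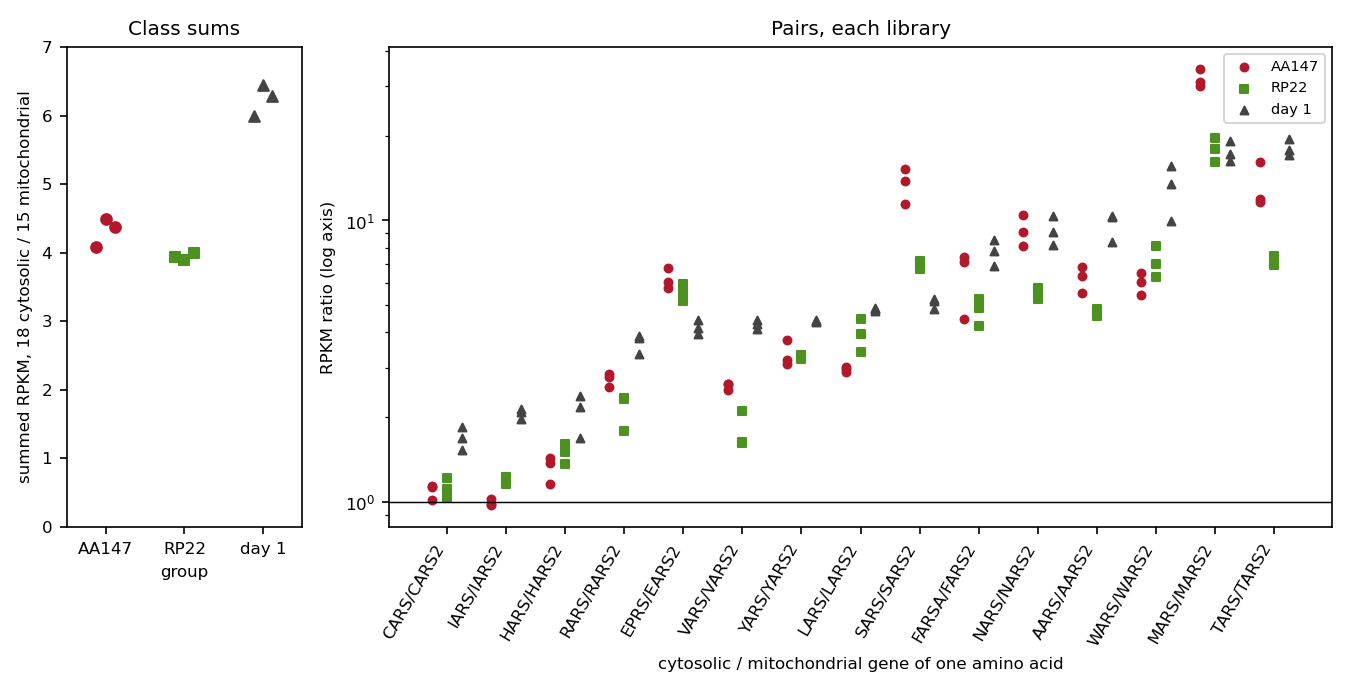
Left, ratio of the summed RPKM of 18 cytosolic to 15 mitochondrial genes in each library; right, the same ratio for the 15 pairs of one amino acid on a log axis, with AA147, RP22 and day 1 libraries side by side. The class ratio is 4.08 to 4.499 with AA147, 3.90 to 3.99 with RP22 and 6.001 to 6.45 at day 1. The SARS/SARS2 and MARS/MARS2 pairs are higher in every AA147 library than in any RP22 or day 1 library.

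Within the cytosolic set and GARS and KARS, the make-up of the summed RPKM also shifted. TARS held 8.11, 8.75 and 8.01% of that sum in AA147 libraries, 7.36, 6.56 and 6.87% in RP22 libraries and 13.5, 11.5 and 11.97% in day 1 libraries. SARS held 8.46, 9.502 and 9.67% in AA147 libraries, 7.62, 7.91 and 7.87% in RP22 libraries and 5.46, 5.51 and 5.67% in day 1 libraries. The share of TARS was thus lower at day 13 with both compounds, and that of SARS higher, most with AA147. Among mitochondrial genes CARS2 held 13.6, 14.1 and 13.7% of the summed RPKM in AA147 libraries, 11.1, 11.3 and 10.9% in RP22 libraries and 8.08, 7.61 and 8.59% in day 1 libraries.

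The enzymes of the multisynthetase complex (DARS, EPRS, IARS, KARS, LARS, MARS, QARS and RARS) did not keep constant proportions. RARS over LARS, as a ratio of RPKM, was 2.91, 2.703 and 2.62 in AA147 libraries, 1.802, 1.31 and 1.36 in RP22 libraries and 0.944, 1.13 and 0.977 in day 1 libraries. EPRS over LARS was 1.92, 2.204 and 2.14 in AA147 libraries, 1.36, 1.08 and 1.16 in RP22 libraries and 0.982, 1.13 and 1.06 in day 1 libraries. LARS was low relative to both partners in every AA147 library, and EPRS over LARS in RP22 libraries reached into the day 1 range. For AA147 against RP22, 3 of the 8 complex genes (37.5%) rose and 1 fell with TMM, against 29.8% and 32.2% of all genes, and 0 rose and 5 (62.5%) fell with totals alone, against 13.3% and 59.7%. Of the 12 other cytosolic and dual genes, 7 (58.3%) rose and 0 fell with TMM, and 0 rose and 6 of the 12 fell with totals alone. The shares that fell with totals alone were thus near that of all genes. For RP22 against day 1, 7 of the 8 and 12 of the 12 fell, against 35.2% of all genes, and 7 and 11 with totals alone, against 31.4%. For AA147 against day 1, 6 of the 8 and 9 of the 12 fell, against 40.4% of all genes, and 8 and 12 with totals alone, against 53.9%.

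The complex scaffolds AIMP1, AIMP2 and EEF1E1 all fell with RP22 against day 1, against 35.2% of all genes with TMM and 31.4% with totals alone. AIMP2 had 14.3, 15.03 and 14.9 CPM in AA147 libraries, 9.997, 10.02 and 10.6 CPM in RP22 libraries and 26.7, 28.4 and 25.4 CPM in day 1 libraries. EEF1E1 had 20.5, 21.2 and 21.2 CPM in AA147 libraries, 20.9, 23.9 and 21.1 CPM in RP22 libraries and 53.5, 59.8 and 60.8 CPM in day 1 libraries, so the day 13 groups overlapped. For AA147 against RP22, AIMP1 (0.25) and AIMP2 (0.45) rose on the log2 scale with TMM, against 29.8% of all genes, and EEF1E1 (-0.15) was not called. With totals alone AIMP1 (-0.21) and EEF1E1 (-0.60) fell, against 59.7% of all genes, and AIMP2 (-0.0078) was not called. AIMP1 was thus called in opposite directions.

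The GARS to KARS ratio, between the genes that serve both compartments, was 1.599, 1.85 and 1.53 in AA147 libraries, 1.08, 1.18 and 1.19 in RP22 libraries and 1.12, 1.33 and 1.26 in day 1 libraries. It was above every RP22 and day 1 value in each AA147 library, while the RP22 and day 1 ranges overlapped. HARS and HARS2, whose starts lie 85 bases apart on opposite strands of chromosome 5, moved unequally. In RPKM, HARS over HARS2 was 1.43, 1.37 and 1.16 in AA147 libraries and 1.36, 1.61 and 1.504 in RP22 libraries. It was 1.69, 2.18 and 2.38 in day 1 libraries, with the uncertainty of HARS2 given above. The factor between RPKM and reads also varied for HARS, so ratios of reads differ from these. The stretch between the starts, at chr5:140691371-140691454 of GRCh38.p14 on the plus strand, which reads away from HARS and toward HARS2, is shown because both genes share it.
HARS2 and HARS: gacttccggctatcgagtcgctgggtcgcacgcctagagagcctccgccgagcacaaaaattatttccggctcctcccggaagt

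Of the 12 cytosolic and dual genes listed as linked to ATF4, 12 fell with RP22 against day 1 (median log2 fold change -1.20), as did 7 of the 8 others (median -1.01), against 35.2% of all genes. With AA147 against day 1, 10 of the 12 (median -0.995) and 5 of the 8 others (median -0.75) fell with TMM, against 40.4% of all genes. With totals alone 12 of the 12 (median -1.43) and 8 of the 8 others (median -1.18) fell, against 53.9%. For AA147 against RP22 the median of the 12 was 0.37 with TMM and -0.09 with totals alone, and that of the 8 others was 0.15 and -0.31. For the 6 genes with the TGATGCAA core shown above the median for AA147 against RP22 was 0.37 with TMM and -0.09 with totals alone, and for the 10 cytosolic and dual genes without it in a matched window it was 0.23 and -0.22. For RP22 against day 1 the median of the 6 was -1.28 with TMM and -1.18 with totals alone, and that of the 10 was -1.07 and -0.97. For AA147 against day 1 the median of the 6 was -0.995 with TMM and -1.43 with totals alone, and that of the 10 was -0.46 and -0.90. These lists are small and their ranges overlapped. The 6 genes with the TGATGCAA core are all among the 12 linked to ATF4, so the medians of the 6 and the 12 are not independent of each other.

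Other genes of the amino acid response, from a list of 18, are given for comparison. For AA147 against RP22, 9 of the 18 rose and 2 (11.1%) fell with TMM, against 29.8% and 32.2% of all genes, and 7 (38.9%) rose and 4 (22.2%) fell with totals alone, against 13.3% and 59.7%. SLC7A5, the light chain of a leucine and tryptophan transporter, had 1283, 1439.6 and 1489.8 CPM in AA147 libraries, 314, 497 and 485 CPM in RP22 libraries and 283, 394 and 376 CPM in day 1 libraries, with a log2 fold change of 1.62 ± 0.18 (SE, adjusted p = 0.00024) for AA147 against RP22 by edgeR with TMM and 1.16 (adjusted p = 0.0016) with totals alone. The mitochondrial folate enzymes ALDH1L2 and MTHFD2 rose by 1.24 and 1.22 on the log2 scale with TMM, and by 0.79 and 0.76 with totals alone. The serine synthesis enzyme PHGDH fell, at -0.70 with TMM and -1.16 with totals. ATF4 itself rose with TMM (0.61) and was not called with totals alone (0.15). With RP22 against day 1, 2 of the 18 (11.1%) rose and 11 (61.1%) fell under either scaling, against 36.6% and 35.2% of all genes with TMM. With AA147 against day 1, 6 (33.3%) rose and 7 (38.9%) fell with TMM, near the 38.7% and 40.4% of all genes, and 4 rose and 9 fell with totals alone, against 28.1% and 53.9%.

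QRSL1, an amidotransferase subunit that makes mitochondrial glutaminyl-tRNA, had 21.1, 23.3 and 22.4 CPM in AA147 libraries, 24.01, 26.4 and 25.6 CPM in RP22 libraries and 64.5, 72.9 and 73.7 CPM in day 1 libraries. For AA147 against RP22, QRSL1 fell under both scalings, at -0.27 with TMM and -0.72 with totals alone.

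TARSL2, a second cytosolic threonine enzyme, went the other way and rose with AA147 against RP22 under both scalings. It had 56.9, 61.6 and 53.2 CPM in AA147 libraries, 23.5, 27.8 and 31.02 CPM in RP22 libraries and 24.3, 26.6 and 25.2 CPM in day 1 libraries. The log2 fold change for AA147 against RP22 was 0.98 ± 0.12 (SE, adjusted p = 0.00026) by edgeR, and 0.52 (adjusted p = 0.0079) with totals alone. As a ratio of RPKM, TARSL2 over TARS was 0.202, 0.175 and 0.178 in AA147 libraries, 0.112, 0.141 and 0.154 in RP22 libraries and 0.0308, 0.0346 and 0.0362 in day 1 libraries. TARS was thus the more abundant of both in every library.

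Genes of the steps around charging were counted as well. With RP22 against day 1, 7 of 9 genes of aminoacyl-tRNA editing and tRNA end processing fell, 5 of 6 cytosolic elongation factor genes and 6 of 10 mitochondrial translation factor genes, and none rose on the TMM scale, against 35.2% and 36.6% of all genes. With totals alone 6, 3 and 6 fell and 1 rose, the tRNA end-processing gene ELAC1, against 31.4% and 40.0%. With AA147 against day 1, 7, 5 and 5 of them fell, against 40.4% of all genes, and ELAC1 rose with TMM. With totals alone 7, 6 and 10 fell, against 53.9%, and ELAC1 was not called. For AA147 against RP22, 1 of the 9, 2 of the 6 and 2 of the 10 rose with TMM, 1, MTRF1, fell, against 29.8% and 32.2% of all genes. With totals alone 7, 5 and 9 fell and 0 rose, against 59.7% and 13.3%. EEF1A1, the factor that carries charged tRNA to the ribosome, had 961, 1242 and 1095 CPM in AA147 libraries, 884, 934 and 889.8 CPM in RP22 libraries and 1643, 1512 and 1514 CPM in day 1 libraries. Its log2 fold change was -0.79 ± 0.07 (SE, adjusted p = 2.9e-05) for RP22 against day 1 by edgeR.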

How the data were processed

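Total RNA of 9 HUES9 libraries was sequenced, per the labels' protocols. Reads assigned to genes were deposited by the authors in 2 forms, unscaled expected counts and RPKM. Per the submitters' processing notes the genome was GRCh37.p13. The sources used here do not give the aligner or the counter. Of the count table's 27772 rows, 42 symbols stood on more than 1 row and were summed. A floor of 0.05, in 41.43% of cells, was read as 0, and fractions (0.914% of cells) were rounded. RPKM were used as deposited, for levels and ratios.

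Each comparison was fitted on its own 6 libraries in R 4.3.3 with edgeR 4.0.16 (filterByExpr, TMM, robust quasi-likelihood test, group as the only term), and p-values were adjusted by Benjamini-Hochberg over all genes tested, with a threshold of 0.05. SEs are the log2 fold change over the square root of F; 95% intervals use the same SE. CPM printed use TMM over all 9 libraries. Alternatives used DESeq2 1.42.0 and limma 3.58.1, other scalings, filters, RPKM with pseudocounts of 0.1 and 1, a replicate block and left-out libraries. The computation was tested on simulated data with few changed genes, balanced up and down. Such data cannot decide between the scalings, since most genes were called in the real comparisons.

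Members and lists were chosen with earlier results of these data known, so counts over lists have no test of their own. Per-library values were given for the 4 largest rises and falls per comparison, for GARS and KARS, and for the 3 pairs most apart; other genes with values were chosen after their values were seen. Results of some listed genes are not reported here. Comparisons with day 1 share its libraries. Sequences are from RefSeq (GRCh38.p14), whose coordinates are not those of the authors' build. Depth of 9223027 to 10118258 reads per library limits the precision of low genes; the p-values rest on 3 replicates per group.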

Additional observations from a re-analysis of the deposited data

Results flagged for a closer look

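The change between day 1 and day 13 differed between AA147 and RP22, by the test of AA147 against RP22 (edgeR's quasi-likelihood test, adjusted over all genes), for 20 of the 35 synthetase genes on the TMM scale, a smaller share than the 62.0% of all genes tested. The log2 differences of the cytosolic genes were 0.41 for CARS, 0.47 for EPRS, 0.30 for HARS, -0.36 for LARS, 0.39 for MARS, 0.35 for NARS, 0.55 for RARS, 0.54 for SARS, 0.60 for TARS and 0.23 for VARS. For GARS, which serves both compartments, the difference was 0.69. Those of the mitochondrial genes were -0.31 for AARS2, 0.45 for CARS2, 0.30 for EARS2, 0.51 for HARS2, 0.34 for IARS2, -0.39 for NARS2, 0.28 for RARS2, -0.41 for SARS2 and -0.31 for TARS2. With library totals alone, LARS, AARS2, NARS2, SARS2 and TARS2 kept their call and VARS was called in the opposite direction.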

How the results depend on the processing

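Scaling decided most directions of AA147 against RP22, and the cause was not tested. With library totals alone, and in limma on log2(RPKM + 0.1) and on log2(RPKM + 1), each gave 0 rises and 21 falls in place of 15 and 5. In that order, the log2 fold changes that turned below 0 were AARS -0.37, -0.37 and -0.36; CARS -0.0445, -0.0381 and -0.0371; DARS -0.32, -0.32 and -0.32; FARSA -0.34, -0.34 and -0.33; HARS -0.15, -0.12 and -0.11; IARS -0.40, -0.39 and -0.39; MARS -0.0728, -0.07 and -0.0691; NARS -0.11, -0.10 and -0.10; QARS -0.37, -0.37 and -0.37; VARS -0.23, -0.23 and -0.22; YARS -0.44, -0.44 and -0.43; KARS -0.29, -0.29 and -0.29; CARS2 -0.0084, -0.0051 and -0.005; EARS2 -0.16, -0.15 and -0.14; IARS2 -0.12, -0.12 and -0.11; LARS2 -0.41, -0.40 and -0.37; RARS2 -0.18, -0.26 and -0.25; and WARS2 -0.37, -0.36 and -0.31. For AA147 against day 1 they were HARS -0.40, -0.40 and -0.39; QARS -0.42, -0.42 and -0.41; IARS2 -0.33, -0.33 and -0.32; RARS2 -0.0833, -0.0821 and -0.0796; and VARS2 -0.42, -0.44 and -0.40, and 1 gene rose in place of 3 under all 3 settings. For RP22 against day 1, 1 gene rose in place of 0 with library totals alone, without RP22 replicate 1, and without replicate 1 of both groups. Left-out libraries gave 13 to 16 rises and 0 to 6 falls for AA147 against RP22, 0 to 1 rises and 29 to 30 falls for RP22 against day 1, and 3 rises and 23 to 24 falls for AA147 against day 1. The cytosolic less mitochondrial median ranged over 0.16 to 0.25, -0.52 to -0.42 and -0.113 to 0.0318 in them; for AA147 against day 1 it was 0.0285 without replicate 1 of both groups, 0.0278 with GARS and KARS counted as cytosolic and -0.15 on log2(RPKM + 1). For AA147 against RP22, correlations of the deviations of same-numbered replicates were 0.209, 0.163 and 0.076, and those of unlike-numbered ones -0.219 to 0.135. In the comparisons with day 1 the same-numbered ones gave -0.051 to 0.056. The sample titles link these libraries by number only, and whether same-numbered day 13 libraries were handled together was not tested. With the replicate block 14 genes rose and 4 fell for AA147 against RP22 (EARS2 and TARS2 were not called), 30 fell for RP22 against day 1, and 3 rose and 25 fell for AA147 against day 1. Genes of low depth such as FARS2 and MARS2 have wide intervals.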
